A study of Rattus norvegicus with 256 samples.

Results

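The mitochondrial respiratory chain and the ATP synthase were followed across 31 rat organs as 79 genes, measured by 88 of the 31042 probesets of the RAE230_2 array. A probeset was a member where the array annotation gave it a single symbol of a subunit of complex I (Nduf), complex II (Sdh), complex III (Uqcr), complex IV (Cox4 to Cox8) or complex V (Atp5). Complex I contributed 35 genes, complex II 4, complex III 7, complex IV 17 and complex V 16, and 8 genes had more than 1 probeset. A further 7 probesets with several symbols, of which one fitted, were not members, and no gene was named from them. Some members are not subunits in the strict sense. Atp5if1 is the inhibitor of the ATP synthase, Cox7a2l helps to join complexes III and IV, and Cox6c-ps1 is named as a pseudogene.

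The tissues came from untreated male and female Han Wistar-derived rats (AlpkHsdBrlHan:WIST), whose age was not given in the sources used here. Each of the 256 arrays held RNA of 1 organ of 1 rat. Of these arrays, 115 were from males and 119 from females in 26 somatic organs, and 22 covered the testes, prostate, epididymis, ovary and uterus. The 57 groups of an organ and a sex held 2 to 5 arrays. Samples cut from the frozen organs were homogenised, so each value is an average over the cell types of the sample. Values were GCRMA signals on a log2 scale, where 1 unit is a doubling, and array medians lay between 3.86 and 4.45. A probeset counted as expressed above 6.65, the level the study's methods use. On 4 arrays the Y-linked gene Eif2s3y went against the labelled sex, namely male replicate 3 of the aorta, male replicate 5 of the heart, and male replicate 5 and female replicate 2 of the bone marrow. Leaving them out moved no count of called members by more than 1.5 times. Expected markers were above the threshold in the heart (6 of 6 cardiomyocyte genes), soleus (6 of 6 slow fibre genes), gastrocnemius (7 of 7 fast fibre genes), liver (5 of 5), kidney (4 of 4), brain (4 of 4) and testes (5 of 5 germ cell genes).

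The respiratory chain passes electrons from NADH (complex I) and succinate (complex II) through ubiquinone, complex III and cytochrome c to oxygen at complex IV. The proton gradient that results drives ATP synthesis by complex V. Heart and skeletal muscle are rich in mitochondria, and several small subunits of complex IV exist there as muscle isoforms, such as Cox6a2, Cox7a1 and Cox8b, in place of the widespread Cox6a1, Cox7a2 and Cox8a. Male germ cells have isoforms of their own, among them Cox6b2 and Cox7b2. Brown fat burns fuel for heat through the uncoupling protein Ucp1, and is known for much respiratory chain and little ATP synthase.

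Upstream sequences are shown for 5 genes on which the organ patterns turn: the muscle isoforms Cox6a2, Cox8b and Cox7a1 of complex IV, the widespread partner of Cox8b, and the isoform with the largest difference in the testes. Each is the 250 bases before the transcription start in the direction of transcription, taken from RefSeq on build GRCr8. Capitals mark matches on either strand to CAGCTG (an E-box of the MyoD family), the MEF2 consensus, GGGCGG (a GC box), TGACCT (part of the sites of oestrogen-related receptors), GCATGC (the core of the NRF1 site) or TATAAA (the TATA box). Cox6a2 lies on the minus strand at chr1:192219717-192219966, Cox8b on the minus strand at chr1:205408274-205408523, Cox7a1 on the plus strand at chr1:94568966-94569215, Cox8a on the minus strand at chr1:213833624-213833873, and Cox7b2 on the plus strand at chr14:37046831-37047080.
Cox6a2: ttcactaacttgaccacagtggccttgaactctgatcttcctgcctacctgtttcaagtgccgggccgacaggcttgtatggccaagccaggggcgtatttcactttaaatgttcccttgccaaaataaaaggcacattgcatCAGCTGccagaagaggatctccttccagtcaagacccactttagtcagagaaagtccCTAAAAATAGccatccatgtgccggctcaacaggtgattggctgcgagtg
Cox8b: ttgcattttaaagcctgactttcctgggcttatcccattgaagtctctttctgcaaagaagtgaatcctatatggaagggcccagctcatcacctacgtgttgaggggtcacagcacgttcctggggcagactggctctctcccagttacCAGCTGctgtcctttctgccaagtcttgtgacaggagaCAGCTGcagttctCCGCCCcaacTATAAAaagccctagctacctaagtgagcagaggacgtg
Cox7a1: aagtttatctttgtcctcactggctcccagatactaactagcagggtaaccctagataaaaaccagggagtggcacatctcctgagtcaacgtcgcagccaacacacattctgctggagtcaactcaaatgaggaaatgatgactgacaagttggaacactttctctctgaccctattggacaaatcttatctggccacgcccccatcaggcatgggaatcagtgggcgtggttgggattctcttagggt
Cox8a: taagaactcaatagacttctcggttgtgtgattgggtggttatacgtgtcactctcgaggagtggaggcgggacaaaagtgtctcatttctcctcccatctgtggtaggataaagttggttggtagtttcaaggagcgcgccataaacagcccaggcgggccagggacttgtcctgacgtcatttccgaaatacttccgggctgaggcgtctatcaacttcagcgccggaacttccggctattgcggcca
Cox7b2: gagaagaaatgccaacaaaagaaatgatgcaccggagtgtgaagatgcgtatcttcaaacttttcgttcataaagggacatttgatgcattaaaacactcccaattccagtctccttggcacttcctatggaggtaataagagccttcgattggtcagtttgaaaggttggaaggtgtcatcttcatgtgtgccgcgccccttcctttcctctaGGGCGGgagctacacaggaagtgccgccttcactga
The Cox6a2 sequence held CAGCTG at position -107 and a MEF2 match at -50, counted from the start. Cox8b held CAGCTG at -100 and -62, a GC box at -49 and a TATA box at -39. Cox7a1, a muscle isoform, and Cox8a held none of these words, and Cox7b2 held a GC box at -36. Of all 33469 upstream sequences of the same length, 12.0% held CAGCTG, 2.96% a MEF2 match, 30.5% the GC box and 12.9% the TATA box. Cox6a2 was the 1 member with a MEF2 match among the 71 that had a sequence. In the 64 sequences of members expressed in every organ, CAGCTG was found in 9.38%, GCATGC in 17.2% (6.15% of all sequences) and TGACCT in 20.3% (14.1% of all). A match describes letters and is not evidence of binding.

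Most members were expressed in every organ. Mean values were above 6.65 in all 31 organs for 72 of the 88 probesets (81.8%), against 3588 of all 31042 (11.6%). Taking the probeset with the highest mean for each gene, 70 of the 79 genes were expressed everywhere. The other genes were the complex IV isoforms Cox6a2, Cox8b, Cox7a1, Cox4i2, Cox6b2 and Cox7b2, the probeset of Cox5a, the complex I-like gene Ndufa4l2 and the pseudogene Cox6c-ps1. Cox4i2 and Cox6c-ps1 did not reach the threshold in any organ mean. The lower probesets of Atp5me and Atp5po and both lower probesets of Atp5if1 also stayed under it in every organ.

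Over the 70 genes expressed everywhere, the heart was highest and the pancreas lowest. Each gene was set against its own average over the 31 organ means, and the deviations of an array were averaged. The heart lay at 1.35 ± 0.14 log2 units (SD, n = 7), the aorta at 1.12 ± 0.12 (n = 10), the soleus at 1.05 ± 0.16 (n = 8) and the gastrocnemius at 0.95 ± 0.14 (n = 6). The kidney followed at 0.60 ± 0.07 (n = 10), and no kidney array reached the lowest gastrocnemius array (0.73). The stomach, duodenum, jejunum, caecum, thyroid, adipose and colon lay between 0.31 and 0.49. Lymphoid and other organs were below the average, with the spleen at -0.77, the testes at -0.83, the lung at -0.84 and the pancreas at -0.89 ± 0.10 (n = 7). Of the 30 pairs of neighbours in this order, 29 had overlapping arrays, and in 26 the means differed by less than their pooled SD. The exceptions were heart above aorta, gastrocnemius above kidney, colon above ileum and pituitary above spleen. The same measure over all 3588 probesets expressed everywhere was -0.06 in the heart, -0.03 in the aorta and -0.50 in the pancreas, so the pancreas and the testes (-0.40) were low for widely expressed probesets in general. In homogenised tissue, fewer cells of a type and less RNA per cell cannot be told apart.

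**Figure D1:**
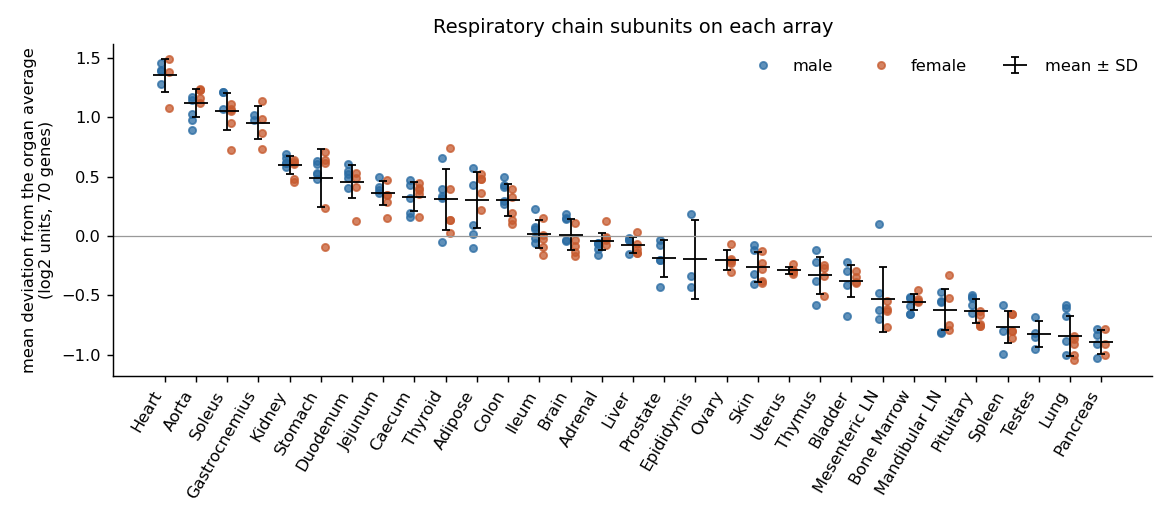
Each point is 1 array, and its height is the mean deviation of 70 respiratory chain genes from their average over the 31 organs (log2 units). Black bars give the mean ± SD of an organ. Heart, aorta, soleus and gastrocnemius stand above the kidney, and spleen, testes, lung and pancreas are lowest.

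Most members followed this common order. The organ means of a gene had a median Pearson r of 0.89 with the mean of the other members over the 31 organs, and r was above 0.8 for 54 of the 70 genes. These points share arrays and normalization, and the correlation is a description. Ndufb9, an accessory subunit of complex I, was closest (r = 0.97). The genes farthest from the common order were Cox8a (0.47), Cox6a1 (0.31), Atp5if1 (0.03) and Cox7a2l (-0.04). Uqcrfs1, the Rieske iron-sulphur protein of complex III, had 0.73 with the testes and 0.94 without them, and Cox7b had 0.70 and 0.92. Outside the members, the 10 genes nearest to the mean deviation among 12009 were Ndufab1, Idh3b, Acot13, Cyc1, Apoo, Suclg1, Endog, Timm17a, Timm21 and Mrpl4, with r from 0.97 to 0.91. Ndufab1, the acyl carrier subunit of complex I, and Cyc1, the cytochrome c1 of complex III, are chain proteins whose symbols the member rule does not take in.

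The span between the highest and the lowest organ mean differed between genes. For genes expressed everywhere its median was 2.89 log2 units, beside 2.87 for every probeset expressed everywhere. In complex I, Ndufs4 (1.74) and Ndufb1 (1.84) varied least, and Ndufs1 (4.62) and Ndufa4l2 (6.44) most. Ndufs1, the large iron-sulphur subunit, had a lowest, median and highest array of 13.22, 13.29 and 13.64 in the heart and of 8.10, 8.88 and 8.99 in the pancreas. No pancreas array approached a heart array. In complex II the span ran from 3.19 for Sdhb to 4.05 for Sdhd, and all 4 genes were lowest in the testes, although the lower probeset of Sdhd was lowest in the pituitary (7.62). In complex III, Uqcr10 (2.02) and Uqcr11 (2.45) varied least, and Uqcrc2 (3.24) and Uqcrc1 (3.27) most. In complex IV, Cox4i1 spanned 1.46 and the unexpressed Cox6c-ps1 0.57, while Cox8b spanned 11.57 and Cox6a2 11.87. For Ndufa4l2, Cox8b and Cox6a2 the lowest organ was not expressed, and from the threshold the spans were at least 3.80, 7.56 and 7.17. In complex V, Atp5mg (1.80) and Atp5f1b (1.94) varied least, and Atp5po (3.27) and Atp5if1 (3.59) most.

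Striated muscle, the mean of heart, soleus and gastrocnemius, had higher values than the mean of the other 23 somatic organs for most members. A member was called where limma gave a Benjamini-Hochberg adjusted p under 0.05 over all 31042 probesets, the difference exceeded 2-fold and 1 side was expressed. By this rule 58 of the 88 probesets rose (65.9%) and 1 fell (1.14%). Of all probesets, 7.84% rose and 6.05% fell, and the 2435 that rose were among 10602 expressed on a side. The median difference was 1.25 log2 units for the members and -0.01 for all probesets. It was 1.49 in complex I (31 of 38 probesets rose), 1.38 in complex II (5 of 5), 1.23 in complex III (6 of 8), 0.95 in complex IV (6 of 17) and 0.99 in complex V (10 of 20).

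Catalytic and landmark subunits showed how far the complexes differed. In complex I, Ndufs1 rose by 2.17 (standard error 0.05, adjusted p = 4.31e-98 from limma) and Ndufv1, which binds NADH, by 1.63 (0.06). In complex II the flavoprotein Sdha rose by 1.33 (0.04) and the iron-sulphur protein Sdhb by 1.56 (0.05). In complex III the core protein Uqcrc1 rose by 1.48 (0.07) and Uqcrfs1 by 1.24 (0.05). In complex V the catalytic Atp5f1b differed by 0.70 (0.04), less than 2-fold, and its partner Atp5f1a rose by 1.05 (0.04). Cox4i1, the largest nuclear-coded subunit of complex IV, differed by 0.51 (0.03), likewise under the fold limit. The Cox5a probeset rose by 1.43 (0.12), but from 6.47, below the expression level, and by 1.24 from the threshold. Some of the other organs were expressed, so 1.24 is not a strict bound.

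The muscle isoforms Cox6a2 and Cox8b had the largest differences of all members. Cox6a2 was at 13.61, 13.75 and 13.94 in the heart (lowest, median and highest array), at 13.65, 13.83 and 13.97 in the soleus and at 13.53, 13.64 and 13.69 in the gastrocnemius. Cox8b was at 13.99, 14.14 and 14.52 in the heart, at 13.77, 14.00 and 14.40 in the soleus and at 13.42, 13.73 and 13.99 in the gastrocnemius. In the liver Cox6a2 ran from 2.15 to 2.62 and Cox8b from 2.60 to 3.18, so no liver array approached a muscle array. Against the other somatic organs Cox6a2 rose by 9.64 (standard error 0.23) and Cox8b by 8.77 (0.16), with adjusted p = 6.03e-99 and 8.95e-119 from limma. The other side was not expressed on average, and with its mean set at the threshold the differences are 7.09 and 7.35 log2 units. These are not strict lower bounds, since some of the other organs, such as skin and thyroid, were expressed well above the threshold. Cox7a1 rose by 3.57 (0.15), and Ndufa4l2, a hypoxia-inducible relative of Ndufa4, by 2.18 (0.10). Measured from the threshold in the same way these are 1.91 and 1.02, which are not strict bounds either.

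Cox6a1, the widespread partner of Cox6a2, was the 1 member that fell, by 1.19 (standard error 0.07, adjusted p = 1.28e-38 from limma). Cox8a, the partner of Cox8b, differed by -0.88 (0.05, adjusted p = 1.53e-37), less than 2-fold. Cox6a1 had a lowest, median and highest array of 9.14, 10.07 and 10.38 in the gastrocnemius, 9.66, 10.50 and 10.99 in the soleus and 10.63, 11.86 and 12.28 in the heart. The gastrocnemius and soleus were its lowest organs, followed by the testes and the skin (10.63 each). Across organs, the within-array difference of Cox6a2 and Cox6a1 stood above its organ average by 10.74 ± 0.53 in the gastrocnemius, 10.33 ± 0.37 in the soleus and 9.01 ± 0.53 in the heart (SD, n = 6, 8 and 7). For Cox8b and Cox8a the same measure was 9.29 ± 0.15, 8.98 ± 0.21 and 8.42 ± 0.25. These averages include organs in which Cox6a2 or Cox8b was not expressed.

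**Figure D2:**
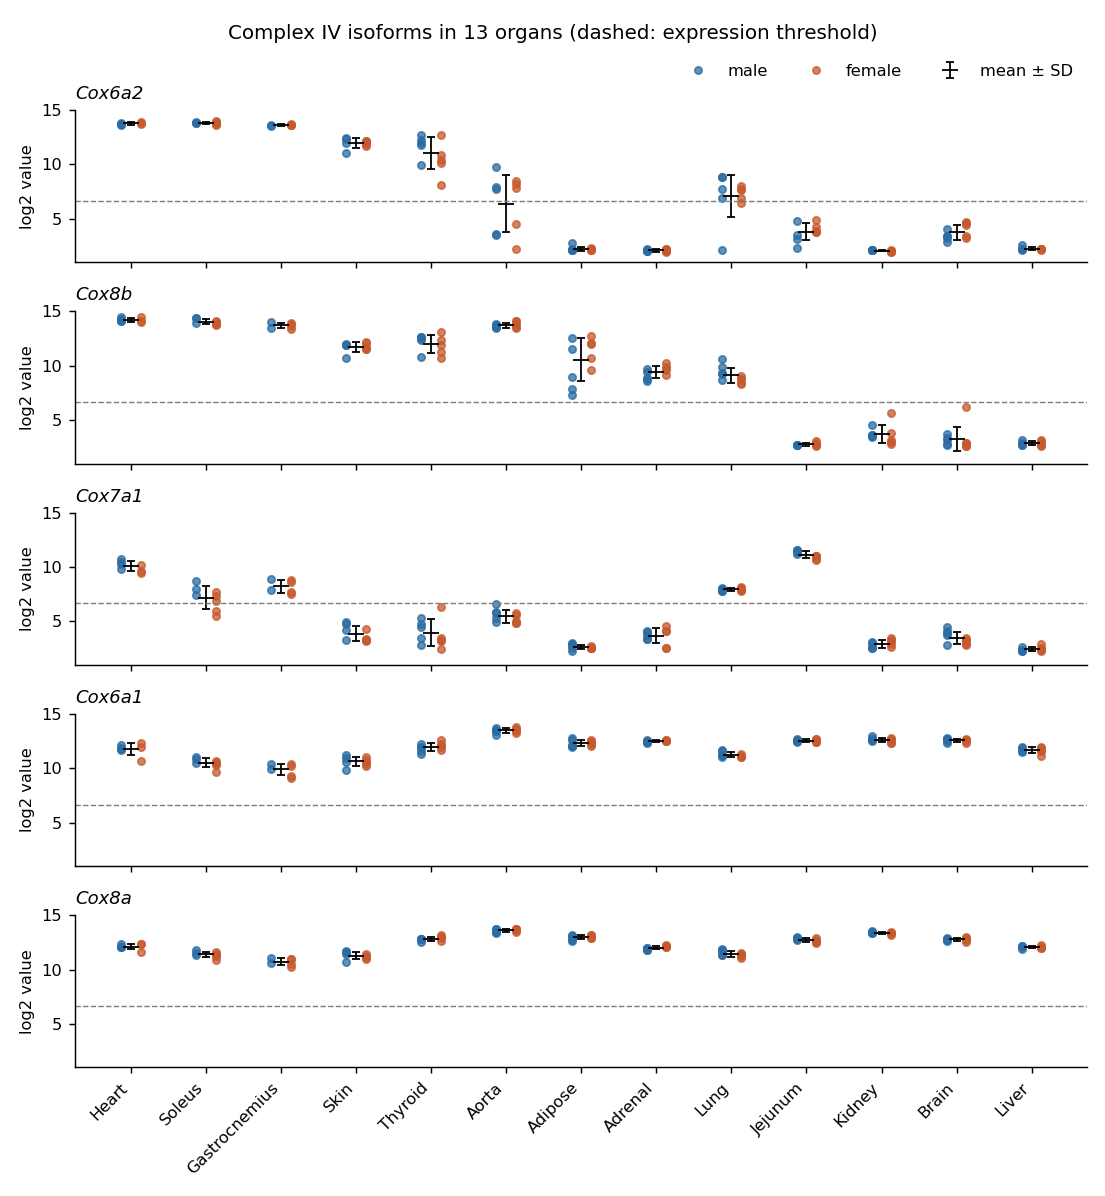
Log2 values of 3 muscle-type isoforms (Cox6a2, Cox8b, Cox7a1) and 2 widespread isoforms (Cox6a1, Cox8a) on each array of 13 organs, with the mean ± SD of an organ and the expression threshold of 6.65 dashed. Cox6a2 and Cox8b are near 14 in heart, soleus and gastrocnemius and near 2 to 3 in the liver, Cox7a1 is highest in the jejunum, and Cox6a1 and Cox8a are lowest in gastrocnemius and soleus among muscle organs.

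Heart and liver, the classical pair for muscle-type and liver-type isoforms, differed in 67 members, all higher in the heart (76.1%). Over all probesets 10.7% were higher and 9.39% lower, and of the 11317 expressed on a side 29.5% were higher. No member was called lower by limma, also with a trend and robust spread, and 1 had a negative difference at an unadjusted p under 0.05. The largest differences were in Cox6a2 (11.52), Cox8b (11.33), Cox7a1 (7.58), Ndufa4l2 (2.75) and Ndufs1 (2.74), with standard errors of 0.49, 0.35, 0.33, 0.22 and 0.11. For the first 4 the liver was not expressed, and the bounds from the threshold were 7.13, 7.56, 3.39 and 0.99. The liver-type isoforms Cox6a1 (0.07, standard error 0.15, adjusted p = 0.777) and Cox8a (0.03, standard error 0.11, adjusted p = 0.89) were not called different between the organs. Atp5if1, the ATP synthase inhibitor, was 2.41 higher in the heart (standard error 0.14), and its liver level of 8.44 ± 0.22 (SD, n = 9) was the lowest of any organ.

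Within striated muscle few members differed by more than 2-fold. Between heart and soleus 4 probesets were higher in the heart and 1 in the soleus, where 4.31% and 4.10% of all probesets were called. Cox7a1 was higher in the heart by 2.69 (standard error 0.34, adjusted p = 3.57e-12 from limma), Cox6a1 by 1.20 (0.16) and a weak second probeset of Ndufa9 by 1.46 (0.18), for which the soleus was not expressed and the bound was 0.995. The heart arrays of Cox7a1 ran from 9.44 to 10.78 and those of the soleus from 5.50 to 8.69, without overlap. Ndufv3, an accessory subunit of complex I, gave opposite calls on its probesets: one was higher in the heart by 1.02 (0.16) and the other in the soleus by 1.34 (0.18). Between the slow soleus and the fast gastrocnemius 1 member was called, the second Ndufv3 probeset, higher in the soleus by 1.35 (0.20, adjusted p = 3.85e-09). The stronger Ndufv3 probeset went the other way, at 10.70 ± 0.32 in the soleus (SD, n = 8) and 11.15 ± 0.27 in the gastrocnemius (n = 6). Of all probesets, 1.53% were higher and 1.29% lower. No member was called lower in the soleus by limma, with or without a trend and robust spread. At an unadjusted p under 0.05 from limma, 12 were higher and 3 lower in the soleus. The median over the members was 0.22 for heart minus soleus and 0.07 for soleus minus gastrocnemius. Between heart and soleus 72 of the 88 member probesets had a positive difference. At an unadjusted p under 0.05 from limma, 47 were higher in the heart and 2 in the soleus. Below 2-fold, Cox8a (0.65, adjusted p = 2.42e-05), Cox6a1 (0.60, adjusted p = 0.00652) and Atp5if1 (0.78, adjusted p = 1.98e-05) were higher in the soleus than in the gastrocnemius.

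**Figure D3:**
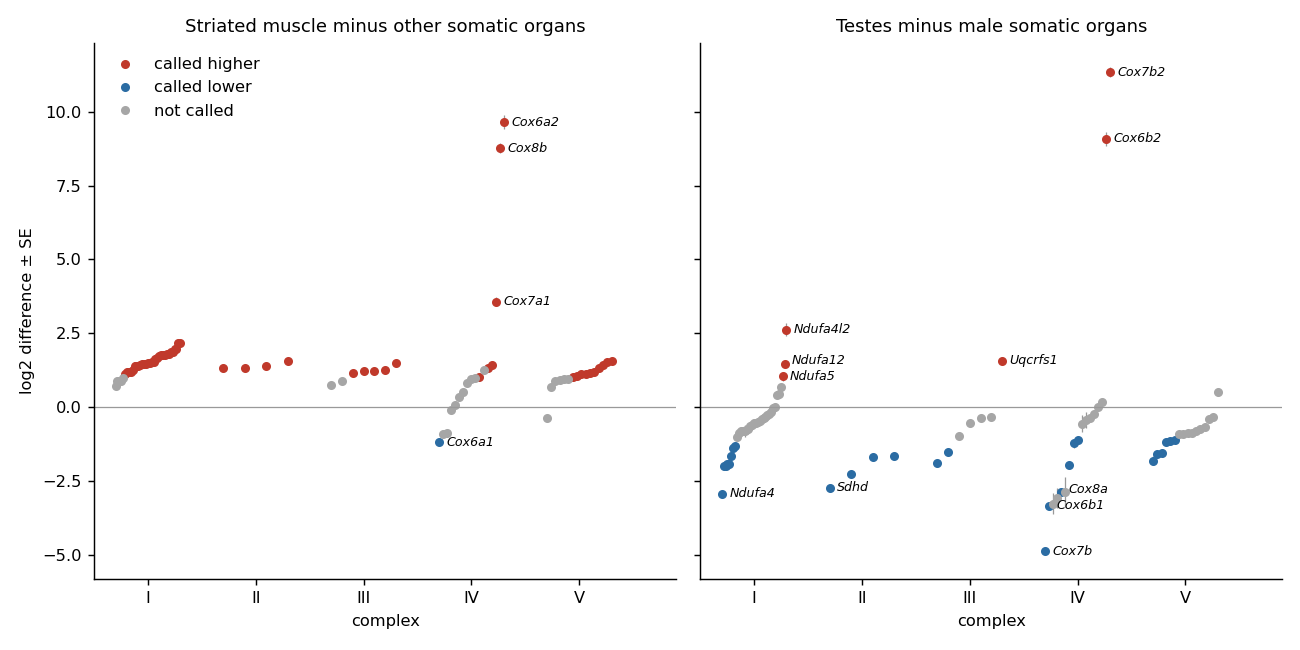
Log2 differences with standard errors for 1 probeset of each of 79 genes, by complex, for striated muscle minus the other somatic organs and for testes minus the male somatic organs. Coloured points were called by limma with a 2-fold limit. Complexes I and II lie above 0 in muscle, and in the testes Cox7b2 and Cox6b2 stand at 11.33 and 9.08 while Cox7b, Cox6b1 and Ndufa4 are at -4.87, -3.34 and -2.92.

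The aorta was close to the heart in respiratory chain level, and its arrays held brown fat markers. Ucp1 was at 14.66, 14.78 and 14.94 (lowest, median and highest of 10 arrays), Cidea, a lipid droplet protein of brown fat, at 13.39, 13.68 and 14.06, and the fat hormone gene Adipoq at 12.26, 12.53 and 12.61. Ucp1 was at 2.37 ± 0.02 in the heart. Of 5 brown fat markers 4 were expressed in the aorta (Elovl3 was not), and their mean per array ran from 9.07 to 10.12, against 3.11 to 4.42 in the liver. All 4 smooth muscle markers were expressed as well. The part of the fat in the aortic values was not tested. Against the other somatic organs 48 members rose (54.5%) and 2 fell (2.27%), beside 6.67% and 3.67% of all probesets, and 20.2% and 11.1% of the 10246 expressed on a side. The largest rises were in Cox8b (7.77, standard error 0.22), Ndufv1 (2.10, 0.08), Uqcrc1 (2.03, 0.09), Sdha (2.02, 0.06) and Ndufs1 (1.96, 0.07). With the other side set at the threshold the Cox8b rise is 7.07. Some of the other organs expressed Cox8b, so this is not a strict bound.

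Complex V lagged behind the other complexes in the aorta. The mean deviation was 1.31 for complex I, 1.70 for complex II, 1.33 for complex III, 0.99 for complex IV and 0.54 for complex V. The gap between complexes I and V was 0.78 ± 0.08 log2 units (SD, n = 10) and ran from 0.60 to 0.86 over the arrays. It was 0.41 ± 0.10 in the heart, where the highest array was at 0.50, and lay below that in the mean of every other organ. Atp5if1 fell by 1.94 (standard error 0.09, adjusted p = 1.96e-54 from limma) and Atp5mc3, which encodes the membrane ring subunit c, by 1.22 (0.05, adjusted p = 2.49e-55). The catalytic subunits differed upward, Atp5f1a by 0.91 (0.05) and Atp5f1b by 0.84 (0.05), both less than 2-fold.

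Set against the heart, the aorta had 6 members lower (6.47% of all probesets were lower) and 3 higher (5.40%). Those lower were Cox6a2 by 7.40 (standard error 0.48), Cox7a1 by 4.58 (0.32), Atp5if1 by 2.35 (0.13), Atp5mc3 by 2.19 (0.08), the coupling factor Atp5pf by 2.07 (0.10) and the second Ndufa9 probeset by 1.96 (0.17). In the aorta Cox6a2, Cox7a1 and this Ndufa9 probeset were not expressed on average. With the aorta mean set at the threshold they were lower by 7.13, 3.39 and 0.995, the last of which is less than 2-fold. Cox6a2 ran from 2.24 to 9.80 over the aorta arrays, so 7.13 is not a lower bound for it. Those higher were the second Ndufv3 probeset by 3.40 (0.17), Cox6a1 by 1.73 (0.15) and Cox8a by 1.49 (0.11). All had adjusted p at or below 6.26e-23 from limma. The stronger Ndufv3 probeset went the other way, at 11.39 ± 0.30 in the aorta (SD, n = 10) and 11.78 ± 0.39 in the heart (n = 7). Cox4i1 (0.01, adjusted p = 1.0), Sdhb (0.06, adjusted p = 0.84) and Uqcrfs1 (0.04, adjusted p = 0.932) were not called different. Cox8b was at 13.43, 13.70 and 14.09 in the aorta, which overlapped the heart, soleus and gastrocnemius.

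**Figure D4:**
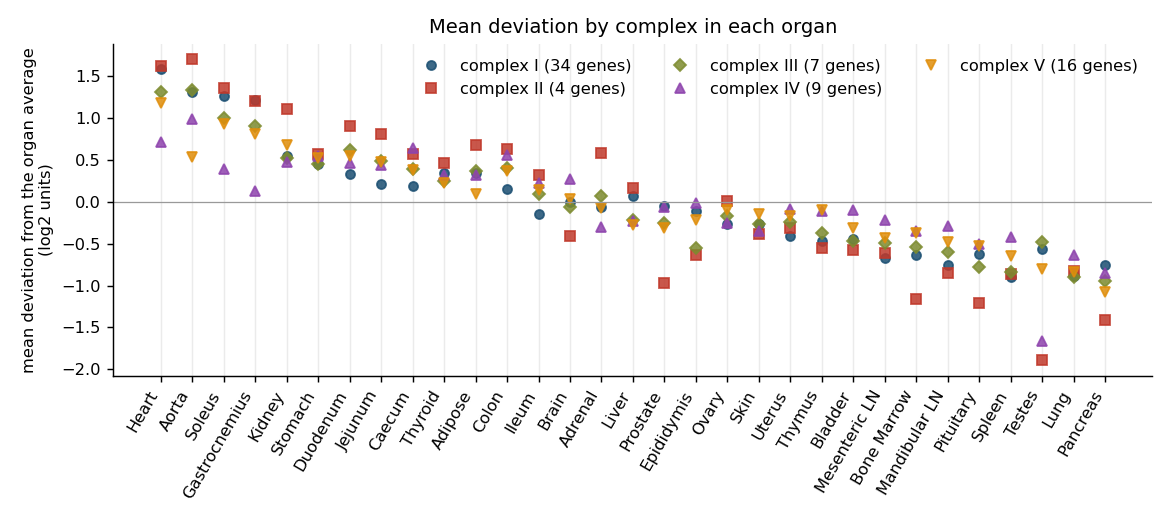
Mean deviation of the genes of each complex from their average over the 31 organs (log2 units), with the organs ordered by the mean over all 70 genes. In the aorta complex V is lowest (0.54) and complex II highest (1.70), in the gastrocnemius complex IV is lowest (0.13), and in the testes complexes II (-1.89) and IV (-1.66) lie below the others.

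Cox6a2 was also expressed in organs whose arrays held markers of heart or skeletal muscle. In the aorta Cox6a2 ran from 2.24 to 9.80 over 10 arrays and the atrial myosin light chain Myl7 from 2.29 to 11.86. The 2 arrays with Myl7 near 2.3 (male 5 and female 4) had Cox6a2 at 3.60 and 2.24, the 2 with Myl7 at 8.78 and 8.75 (male 3 and female 3) had 3.50 and 4.49, and the 6 with Myl7 from 10.56 to 11.86 had 7.72 to 9.80. In the lung, male 5 had Myl7 at 2.20 and Cox6a2 at 2.11, while the other 9 arrays had Myl7 from 9.03 to 12.05 and Cox6a2 from 6.43 to 8.87. Of 6 cardiomyocyte markers 3 were expressed in the lung (Myl7, Myl4 and Tnni3) and 2 in the aorta (Myl7 and Myl4). Myh6, Nppa and Ryr2 were expressed in neither. Against the heart, Myl7 was called higher in the aorta, and Myh6, Nppa, Tnni3 and Ryr2 were called lower. In the skin and the thyroid Cox6a2 was at 11.97 ± 0.42 (SD, n = 9) and 11.08 ± 1.48 (n = 10), and the muscle creatine kinase Ckm at 13.77 ± 0.27 and 13.01 ± 0.87. In the thyroid female 3 was lowest in both genes (8.07 and 11.40), while in the skin Ckm spanned 13.38 to 14.17 and Cox6a2 11.02 to 12.45. All 7 measured fast fibre markers were expressed in both, while Myl7 was at 2.19 in both. The part of muscle tissue in these samples was not tested. Over the 31 organ means the genes nearest to Cox6a2 were Ckmt2 (r = 0.97), the mitochondrial creatine kinase of muscle, Ttn (0.97) and Csrp3 (0.96).

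Cox8b was expressed in organs with brown fat markers, and in the lung, where none of these markers was expressed in the organ mean. In adipose Cox8b was called higher than in the other somatic organs, by 4.46 (standard error 0.22, adjusted p = 4.19e-48 from limma). With the other side set at the threshold the difference is 3.88, which is not a strict bound since some of those organs were expressed. Adipose Cox8b was at 7.27, 11.10 and 12.75 (lowest, median and highest of 10 arrays), and Ucp1 at 8.99, 12.46 and 14.22. Male 4 was lowest in both genes, and female 2 (Cox8b 12.75, Ucp1 14.15) and male 5 (12.57 and 14.22) were highest, so the spread within adipose was wide. Cox6a2 stayed between 2.08 and 2.80 on these arrays, and no marker of striated muscle in general was expressed in the adipose mean. Of the more specific lists, 1 of 6 cardiomyocyte genes (Myl4) and 1 of 7 measured fast fibre genes (Myh1) were expressed there. In the thyroid Cox8b was at 12.03 ± 0.83 with Ucp1 at 12.61 ± 0.69 (SD, n = 10), beside the striated muscle markers given above. Its order there did not follow Ucp1: male 4, lowest in Ucp1 at 11.67, had Cox8b at 12.38, and female 3, with Ucp1 at 12.21, had the lowest Cox8b at 10.67. In the lung Cox8b ran from 8.33 to 10.58, and none of the 5 brown fat markers was expressed in the organ mean. The mean of these markers per lung array ran from 3.26 to 6.49, against 5.61 to 8.56 in adipose. Lung male 5, with Myl7 at 2.20, had Cox8b at 8.64. In the adrenal Cox8b ran from 8.59 to 10.26, while Ucp1 ran from 2.45 to 11.64 and Cidea from 8.40 to 10.91. Over the 31 organ means the gene nearest to Cox8b was Mb, the myoglobin gene (r = 0.91).

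**Figure D5:**
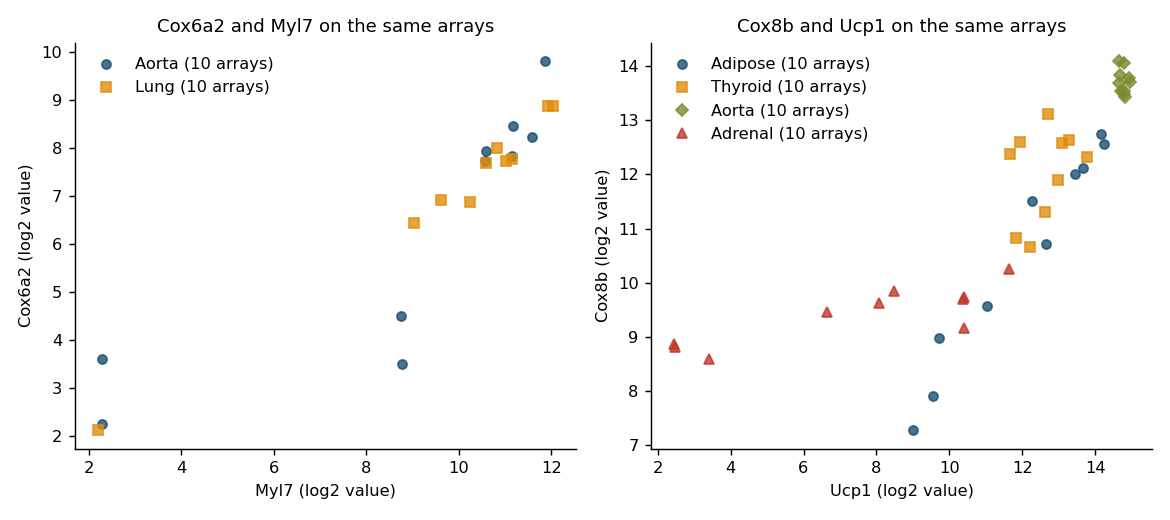
Log2 values of Cox6a2 against the atrial myosin gene Myl7 in aorta and lung, and of Cox8b against the brown fat gene Ucp1 in adipose, thyroid, aorta and adrenal. Each point is 1 array. Arrays with Myl7 near 2 have Cox6a2 below 4, the adipose arrays rise from a Cox8b value of 7.27 to 12.75 as Ucp1 rises from 8.99 to 14.22, and the adrenal arrays keep Cox8b above 8 at any Ucp1 level.

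Cox7a1 had another pattern than the other muscle isoforms. It was highest in the intestine, at 11.12 ± 0.32 in the jejunum (SD, n = 9), 10.90 ± 0.22 in the ileum (n = 10), 10.53 ± 0.14 in the caecum (n = 10), 10.33 ± 0.82 in the duodenum (n = 9) and 10.01 ± 0.29 in the colon (n = 10). The heart lay among these at 10.09 ± 0.47 (n = 7), and the gastrocnemius at 8.24 ± 0.60 and the lung at 7.96 ± 0.12 were lower. In the stomach, uterus and bladder, which also hold smooth muscle, its mean was below the threshold. The nearest genes over organs were Slc25a34 (r = 0.81), Gipc2 (0.81) and Myh14 (0.80). This gene rests on 1 probeset, and whether it reads only Cox7a1 was not tested.

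Kidney, brain and adipose showed smaller differences, and few members passed the 2-fold limit there. In the kidney 6 members were called higher (6.82%, beside 7.73% of all probesets) and none lower (2.51% of all). By limma, with or without a trend and robust spread, the count lower was 0. At an unadjusted p under 0.05 from limma, 69 members were higher and 9 lower in the kidney. Those higher were Sdhc (1.35, standard error 0.07), which anchors complex II, Cox8a (1.24, 0.07), Atp5po (1.21, 0.07), Ndufv3 (1.17, 0.10), the lower probeset of Sdhd (1.04, 0.09) and Atp5f1c (1.02, 0.05). The median difference was 0.44 over the members and -0.11 over all probesets, and 74 of the 88 member probesets had a positive difference. In the brain 2 were higher (11.6% of all) and 2 lower (8.44%): Ndufa8 (1.05, 0.07) and a weak probeset of Ndufa7 (1.67, 0.13), and Cox5a (-1.35, 0.17) and the second Ndufv3 probeset (-1.34, 0.11). One side of the Ndufa7, Cox5a and Ndufv3 differences was not expressed, and the sizes from the threshold were 0.38, 0.03 and 1.03. The other organs enter as an average of expressed and unexpressed organs for Ndufa7 and Cox5a, so 0.38 and 0.03 are not strict bounds. The stronger Ndufa7 probeset, expressed in all 31 organs, was at 10.70 ± 0.21 in the brain (SD, n = 10), below its mean of 11.04 over all arrays. Complex II lay at -0.41 in the brain, while complex IV lay at 0.27. In adipose Cox8b was the 1 member higher (7.08% of all) and Atp5if1 the 1 lower (1.35% of all), by 1.23 (0.09, adjusted p = 1.23e-30). Adipose Atp5if1 arrays ran from 8.89 to 9.50, and the aorta arrays from 8.15 to 9.04.

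The testes exchanged isoforms and had lower values for a large share of the chain. Against the male groups of the 26 somatic organs 28 probesets fell (31.8%) and 6 rose (6.82%). Of all probesets 13.5% fell and 12.7% rose, and of the 11782 expressed on a side 35.5% and 33.4%. Of the 77 member probesets expressed on a side 28 fell and 6 rose. The share that fell was therefore close to that of expressed probesets in general, and the share that rose was below it. The median difference was -0.80 for the members and -0.09 for all probesets. In complex II all 5 probesets fell, in complex I 8 of 38, in complex III 3 of 8, in complex IV 6 of 17 and in complex V 6 of 20.

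Cox7b2, the testis partner of Cox7b, was at 13.82, 13.85, 13.23 and 13.61 on the 4 testes arrays, and no other organ mean was above 4.12. Cox6b2, the testis partner of Cox6b1, was at 12.23, 12.38, 12.10 and 12.22, and the next organ, the uterus, was at 5.72 ± 0.36 (SD, n = 5). They rose by 11.33 (standard error 0.17) and 9.08 (0.24), with adjusted p = 3.31e-135 and 3.11e-93 from limma, and by at least 6.98 and 5.58 from the threshold. Cox7b fell by 4.87 (0.10) and was at 8.27, 8.33, 7.90 and 8.32 in the testes. Cox6b1 fell by 3.34 (0.09) and was at 8.97, 9.01, 8.44 and 8.77. Both partners were thus still expressed on every testes array, and both had their lowest organ mean there. The genes nearest to Cox7b2 over organs were Akap4, a sperm tail protein, and Adam3a, a sperm surface protein (r = 1.00 each). These values rest on 1 organ, since neither gene was expressed elsewhere.

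Other testes differences fell on both sides. Ndufa4, now assigned to complex IV, fell by 2.92 (standard error 0.08), Cox8a by 2.88 (0.12), Sdhd by 2.71 (0.10) and Sdhc by 2.24 (0.11). Sdha was at 9.89 to 10.02 on the 4 testes arrays, against 13.14 to 13.54 in the heart, and fell by 1.69 (0.10). Uqcrfs1 rose by 1.58 (0.11, adjusted p = 6.47e-31 from limma) and had its highest organ mean, 13.56 ± 0.11 (SD, n = 4), in the testes. Its complex III partner Uqcrc2 fell by 1.87 (0.10). Ndufa4l2 rose by 2.63 (0.22), Ndufa12 by 1.47 (0.10) and Ndufa5 by 1.05 (0.16), all 3 named as complex I genes. From the threshold the Ndufa4l2 rise is 1.72, which is not a strict bound since skin and lung expressed this gene. With the ovary in place of the male somatic organs, 8 members rose and 23 fell. Of all probesets 12.4% rose and 15.8% fell, and of the 12073 expressed on a side 31.8% and 40.6%, so the members' shares were below those of expressed probesets. Cox7b2, Cox6b2, Uqcrfs1, Ndufa12 and Ndufa4l2 were again higher and Cox7b, Cox6b1, Ndufa4 and Cox8a again lower.

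Cox4i2 and Ndufa4l2 are known as isoforms of low oxygen. Cox4i2 was at 6.39 ± 0.66 in the lung (SD, n = 10), 5.85 ± 0.28 in the ovary (n = 5) and 5.60 ± 1.20 in the heart (n = 7). No organ mean reached 6.65, so no order of organs is drawn for Cox4i2. Cox4i1 was at 12.46 or above in every organ mean. Ndufa4l2 was at 10.45 ± 0.87 in the skin (SD, n = 9), 8.86 ± 0.58 in the lung (n = 10), 8.37 ± 0.60 in the testes (n = 4), 7.78 ± 0.99 in the gastrocnemius (n = 6) and 7.69 ± 0.76 in the heart (n = 7). The skin means were 9.66 ± 0.57 in males (n = 4) and 11.09 ± 0.37 in females (n = 5), and no male array reached a female one, but the adjusted p was 0.115 from limma.

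Few members differed by more than 2-fold between males and females, and smaller differences reached more members in the pituitary, kidney and duodenum. Sexually dimorphic expression (SDE) required more than 2-fold between the sexes, a mean above 6.65 in one of them and an adjusted p under 0.05. In 26 somatic organs 2 member probesets were SDE in at least 1 organ (2.27% of 88), beside 7.00% of all probesets. Cox7a1 in the duodenum was at 10.94, 10.98, 11.01, 11.07 and 10.88 in males and 9.06, 9.53, 10.12 and 9.37 in females. It was higher in males by 1.46 (standard error 0.19, adjusted p = 0.00509 from limma), in an organ where 2.27% of all probesets were SDE and higher in males. The Cox5a probeset in the kidney was at 7.38, 7.49, 6.93, 7.71 and 7.69 in males and 6.75, 5.46, 6.09, 6.39 and 6.21 in females. It was higher in males by 1.26 (0.24, adjusted p = 0.0112), where 1.05% of all probesets were SDE and higher in males. The male mean was 7.44 and the female mean 6.18, which is below 6.65, so from the threshold the male excess is under 2-fold. In both genes the sexes did not overlap. With the replicate number as a factor within each organ, 1 member was SDE, the Cox5a probeset. That factor pairs a male and a female array that share only a number.

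Without the fold limit, members passed the adjusted p in 5 organs. In the pituitary 19 of 88 were higher in males (beside 4.25% of all probesets) and 2 in females (3.00% of all). Cox5b (0.59, standard error 0.07, adjusted p = 0.00197), Atp5mc3 (0.53, 0.12, adjusted p = 0.0285) and Ndufb6 (0.46, 0.09, adjusted p = 0.019) had the largest male excess. Cox7a2l was higher in females by 0.73, with 11.85 ± 0.12 against 11.12 ± 0.05 in males (SD over 5 arrays, adjusted p = 0.000278 from limma), and Cox4i2, below the threshold, by 0.61. In the kidney 10 members were higher in males (5.61% of all) and 2 in females (6.01%), with Ndufb3 (0.40, adjusted p = 0.0032) next to Cox5a. In the duodenum 9 were higher in males (6.04% of all), among them Cox6a1 by 0.64 (adjusted p = 0.00382). In the adrenal 6 were higher in females (1.88% of all) and 1 in males (2.99%), and each was under 0.35 in size. The 1 higher in males was Ndufa1 (0.27, adjusted p = 0.00518). In the liver Sdhc was higher in males by 0.50 (adjusted p = 0.0279), where 1.29% of all probesets were.

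Other genes were counted from lists of assembly factors, carriers, citrate cycle enzymes, regulators and glycolytic enzymes by the rule used for the organs. In striated muscle 7.84% of all probesets rose and 6.05% fell, which were 2435 and 1878 of the 10602 expressed on a side. Of 16 measured citrate cycle genes 14 rose there and none fell (median 1.52). Of 20 carriers of electrons and of the inner membrane 12 rose, and Slc25a5, Ckmt1 and Ucp2 fell (median 1.42). Of 41 assembly factors 17 rose and none fell (median 0.98). Of 19 regulators 6 rose, namely Ppargc1a, Tfb2m, Polrmt, Esrra, Esrrg and Mef2c, and none fell (median 0.71). Of 19 glycolytic genes 6 rose and 3 fell (median 0.61). In the aorta, where 20.2% of expressed probesets rose and 11.1% fell, 15 of 16 citrate cycle genes rose and none fell (median 2.09). There 18 assembly factors rose and none fell (median 1.07), and 8 glycolytic genes rose and none fell (median 0.86). Among the carriers 8 rose, and Slc25a12, Slc25a13, Ckmt1 and Ucp2 fell (median 0.61). Among the regulators 6 rose and Pprc1 fell (median 0.02). In the testes, where 33.4% of expressed probesets rose and 35.5% fell, 11 of 16 citrate cycle genes fell and 1 rose (median -1.48), and 14 of 20 carriers fell and 1 rose (median -2.02). Of 41 assembly factors 15 fell and 7 rose (median -0.85), a share of falls close to that of expressed probesets. Of 19 regulators 8 fell and 4 rose (median -1.27), and of 19 glycolytic genes 5 fell and 5 rose (median 0.02).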

How the data were processed

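RNA of 31 organs from male and female rats was measured on 256 RAE230_2 arrays, 1 organ of 1 animal per array. The authors deposited log2 values normalised together by GCRMA, whose version is not given in the sources used here. This step pulls all arrays to a like distribution, so changes shared by most transcripts are reduced. Groups came from the labels, and 0 columns belonged to other samples. Precision is limited by the 2 to 5 arrays of a group.

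Organ differences were computed with limma 3.58.1 in R 4.3.3 on all 31042 probesets, from 1 model with a mean for each of 57 groups, averaging sexes where both were present. Sex differences were fitted within each organ. A call needed a Benjamini-Hochberg adjusted p under 0.05 over all probesets, a 2-fold difference and a level above 6.65 on a side. The animal block used statmod 1.5.0, and other tables Python 3.11.15 with pandas 2.3.3. Both fits were tested on simulated data. Symbols came from the platform annotation, and the 88 probesets matched current records. The level of one probeset was not compared with that of another.

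The members and lists were chosen with earlier results of these data known. Genes named were the tissue isoforms, the 2 genes with the widest and the 2 with the narrowest organ span of each complex, the 5 largest calls of each comparison and direction, members called by sex, fixed landmark subunits and the 10 nearest other genes. Further genes, and the smaller sex differences, were named after their values were seen. Both aorta comparisons, the ovary comparison and the one without 5 organs were added after seeing the data. Alternatives were other fold and expression limits, recentring, repeated quantile normalisation, a trend and robust spread, 1 probeset per gene, the animal block, leaving out each replicate number and leaving out the 4 arrays at odds with their sex label. For the SDE counts, the replicate number as a factor within an organ stood in place of the animal block.

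The study describes 5 male and 5 female rats, and its supplementary quality table gives an animal number for each array, from which the pairing across organs was taken. Sample numbers of the arrays from pituitary, ovary, adrenal and bone marrow run in a separate series, and those of the testes do not match the labels, so these arrays had blocks of their own. Whether they came from the same animals is not settled here. Male 1 and female 1 of an organ share only a number. Deviations of arrays of one animal in different organs correlated at a median of 0.06, against -0.00 for different animals (consensus correlation 0.02 over 3105 probesets).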

Additional observations from a re-analysis of the deposited data

Results flagged for a closer look

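In 75 groups of 4 or 5 arrays tested for an array apart from the rest, 4 had one (5.33%), where chance gives about 1 in 20 independent groups. All 4 arrays were male replicate 5, which is 1 animal by its number, so they are not independent of each other. Male replicate 5 of the liver had a mean deviation of the members of -0.15, against -0.04 to -0.02 on the other male liver arrays. Male replicate 5 of the lung had Cox6a2 at 2.11, against 6.92 to 8.87, and its Myl7 was at 2.20. Male replicate 5 of the skin had Cox8b at 10.69, against 11.91 to 11.99. Male replicate 5 of the thyroid had Cox8b at 10.82, against 12.38 to 12.63, with Ckm at 12.14 and Ucp1 at 11.82.

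In 3 pairs of organs a sex difference had opposite directions, and the difference itself was tested by limma with the animal as a block. Atp5mk, a small subunit of complex V, was higher in females in the adrenal (-0.33, male minus female) and in males in the pituitary (0.25), a difference of -0.57 (standard error 0.07, adjusted p = 0.000151). Ndufs7, an iron-sulphur subunit of complex I, was at -0.30 in the adrenal and 0.57 in the duodenum, a difference of -0.87 (standard error 0.13, adjusted p = 0.000472). Ndufc2, an accessory subunit of complex I, was at -0.34 in the adrenal and 0.24 in the kidney, a difference of -0.58 (standard error 0.08, adjusted p = 0.000171). These genes were chosen because they passed in both organs with opposite signs, so the tests are not independent of that choice.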

How the results depend on the processing

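None of the 237 called member differences between organs changed sign under 15 alternatives with other arrays, scaling or spread. The uncalled differences of heart and liver in Cox6a1 (0.07) and Cox8a (0.03) became -0.04 and -0.08 with recentred arrays, -0.10 and -0.04 without female replicate 5, and -0.03 in Cox8a without female replicate 2. With a 1.5-fold limit the counts of members became 2 lower in striated muscle (1 at 2-fold), 9 higher in heart than soleus (4), 5 higher in soleus than gastrocnemius (1), 29 higher and 1 lower in the kidney (6 and 0), 5 higher and 6 lower in the brain (2 and 2), 11 higher in adipose (1), 46 lower in the testes (28), 13 lower in aorta than heart (6) and 5 SDE by sex (2). Without the expression limit, 1 was lower in heart than liver (0), 3 lower in the kidney (0), 6 lower in the brain (2), and 2 higher and 3 lower in adipose (1 and 1). With 1 probeset per gene, 0 were lower in heart than soleus (1), 0 higher in soleus than gastrocnemius (1), and 1 higher and 1 lower in the brain (2 and 2). Recentring the arrays gave 1 higher and 5 lower in the brain. It moved the median of all probesets from -0.16 to -0.42 in the brain, from -0.01 to 0.15 in striated muscle, from -0.03 to -0.14 for heart minus liver, from -0.09 to 0.04 in the testes and from -0.04 to 0.10 in the aorta. The members moved alike, from -0.14 to -0.39, 1.25 to 1.41, 1.37 to 1.26, -0.80 to -0.66 and 1.14 to 1.28. The cause of these changes, beyond the limits themselves, was not tested.

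Leaving out 1 replicate number at a time gave 0 to 1 member lower in soleus than gastrocnemius (1 without male replicate 5 or female replicate 1) and 56 to 60 higher in striated muscle. With the animal as a block, the counts between organs were unchanged (58 and 1 in striated muscle). With the replicate number as a factor within each organ, 1 member was SDE by sex in place of 2. Without aorta, thyroid, skin, lung and adipose, 61 members were higher and 1 lower in striated muscle. Differences near the 2-fold limit fell under it in some settings: Ndufv3 between heart and liver (0.90 to 0.95) and between heart and soleus (0.87 to 0.99), Cox7b (0.95 and 0.96) and Cox4i1 (0.97) between heart and liver, Atp5f1c in the kidney (0.96), Ndufa8 in the brain (0.79) and Ndufa4l2 in the aorta (0.93 to 0.99). Levels under 6.65 carry no order here, which limits Cox4i2, Cox6c-ps1 and the low second probesets.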
